A study of Mus musculus with 14 samples.

Results

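The genes described here encode the proteins of the cytosolic ribosome. They were taken from the deposited expression table by gene symbol: the large-subunit (Rpl), small-subunit (Rps) and stalk (Rplp0, Rplp1, Rplp2) names, together with Rpsa, where the annotation calls the transcript protein-coding. This gave 81 of the 24016 transcripts in the table, on 19 chromosomes. Of these, 43 are large-subunit proteins, 30 are small-subunit proteins and 3 form the stalk. The other 5 (Rpl7l1, Rpl10l, Rpl22l1, Rpl39l and Rps27l) are relatives of a core gene, called duplicated copies below. Whether their products act like those of the core genes was not tested. Rpl3l, the striated-muscle copy of Rpl3, was kept apart. The RNA came from C2C12, an established line of mouse myoblasts whose cells fuse to myotubes once growth medium is replaced by differentiation medium. The cells carried either control siRNA (siCtrl) or a pool of siRNAs against Klf5 (siKlf5), a zinc-finger transcription factor. Each of these treatments is called an siRNA below. The cells were harvested on days 0, 1, 2 and 3 of differentiation. Each siRNA and day had 1 library, 8 in all, so no condition had a replicate. The 6 ChIP-seq samples of the same series were not analysed here.

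Each cytosolic ribosome holds 1 copy of most of these proteins, built onto ribosomal RNA in the nucleolus with the help of assembly factors. Their mRNAs are short and abundant and typically begin with a C followed by a run of pyrimidines, the terminal oligopyrimidine (TOP) motif, through which the mTOR pathway controls their translation. Growing myoblasts make many ribosomes, and ribosome production is known to decline when they leave the cell cycle and differentiate. A few ribosomal proteins have a second gene with a related product, such as Rpl22l1 for Rpl22 and Rps27l for Rps27.

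The bases around the annotated transcript starts are printed for the genes on which the results below turn, with the copies beside their core genes. Each window runs from 10 bases before the start, the start itself being base 11, and was read from the mm9 genome on the transcript's strand. Capitals mark a C followed by at least 4 pyrimidines that begins within 5 bases of the annotated start. A window without capitals says only that no such run begins there.
Rpl22 (chr4:151699825-151699854, plus strand): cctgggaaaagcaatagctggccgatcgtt
Rpl22l1 (chr3:28704423-28704452, plus strand): caagcccgttCTCTTCCCacggctgcagct
Rps27 (chr3:90017551-90017580, minus strand): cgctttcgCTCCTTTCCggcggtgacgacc
Rps27l (chr9:66793915-66793944, plus strand): aggggcgctcgaaagcgagcagttcgtctc
Rps2 (chr17:24856998-24857027, plus strand): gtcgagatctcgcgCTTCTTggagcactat
Rps19 (chr7:25669723-25669752, plus strand): ccacggggccgggCTTTCTggccccaagag
Rpl8 (chr15:76734491-76734520, plus strand): aggctgcgttgacccgtctatttcctcttt
Rps9 (chr7:3655633-3655662, plus strand): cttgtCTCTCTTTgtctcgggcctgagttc
Rpl22l1 carried the run at the start itself, whereas Rpl22 did not, and in the other pair it was the core gene Rps27 that carried it and the copy Rps27l that did not. In the Rpl8 window a pyrimidine-rich stretch lies further downstream than the search reached. Such a run was found in 36 of the 81 ribosomal protein genes (44.4%), in 17.9% of all 20562 protein-coding transcripts of the table and in 18.9% of the other expressed ones.

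Short words that transcription factors read were counted in the 300 bases from 250 before to 50 after each annotated start, on both strands and each word on its own, even where words overlapped. CCGGAAG, the core read by ETS factors, was present in 39.5% of the ribosomal protein genes, in 12.1% of all protein-coding transcripts and in 17.4% of the other expressed ones. Of the words that Klf and Sp factors read, CCGCCC was present in 59.3% of the ribosomal protein genes, in 48.7% of all protein-coding transcripts and in 63.7% of the other expressed ones, and CACCC in 48.1%, 58.8% and 62.4%. The TATA word TATAAA was found in 12.3% of the ribosomal protein genes, in 12.7% of all protein-coding transcripts and in 7.4% of the other expressed ones. These counts describe letters in a window and not binding.

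Recovered depth ranged from 7850497 reads in the siCtrl library of day 1 to 20301506 in that of day 2. The siCtrl library held 1.094, 0.967, 1.719 and 1.138 times the reads of its siKlf5 partner on days 0, 1, 2 and 3. No more than 3 reads per position had been kept when reads were counted, a limit that bears on short, abundant mRNAs. Klf5 was lower in siKlf5 cells on each day (FPKM value 224 against 35.1, 381 against 160, 614 against 192 and 933 against 211 on days 0 to 3), and it was lowered by 1.94 ± 0.20 (SE) on the log2 scale over the 4 days (coefficient -1.94, limma, adjusted p = 0.0244). The muscle genes Ckm and Myh3, which mark differentiation, rose by 5.74 and 4.78 on the log2 scale from day 0 to day 3. None of 7 markers of other cell types (epithelium, blood, endothelium and fat among them) reached a mean FPKM value of 1.

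Ribosomal protein mRNAs were among the most abundant in these cells. A transcript was called expressed where its mean FPKM value over the 8 libraries was at least 1, and 79 of the 81 ribosomal protein genes were expressed among 14312 transcripts in all. The deposited FPKM values are scaled to a total of 10000000 per library and are compared between genes per exon length. The median FPKM value of the 79 genes was 1624, 1801, 1117 and 1312 in siCtrl cells on days 0, 1, 2 and 3 and 1822, 1668, 1406 and 1360 in siKlf5 cells, against medians of 64.8 to 78.1 for all expressed transcripts. The siCtrl library of day 2, the deepest, had the lowest median, and the 2 day 0 libraries and the 2 day 1 libraries were all above the 4 later ones. A mean over 1000 was reached by 64 of the 79 genes, and 27 of the 100 expressed transcripts with the highest means were ribosomal protein genes.

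**Figure D1:**
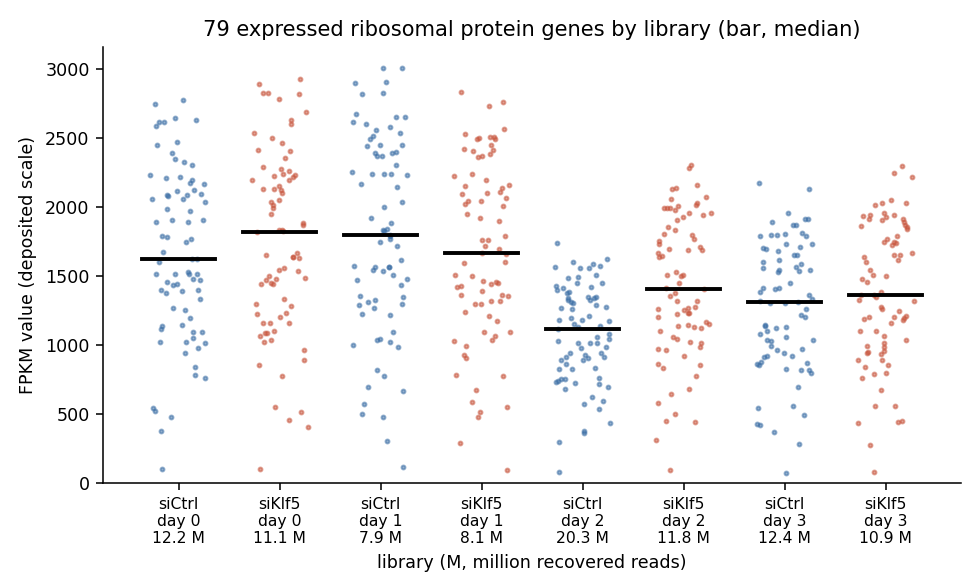
FPKM value (deposited scale, linear axis) of each of the 79 expressed ribosomal protein genes in the 8 libraries, with 1 point per gene and a bar at the median. Blue points are siCtrl and red points siKlf5, and the depth is given under each library. The medians of days 0 and 1 (1624 to 1822) lie above those of days 2 and 3 (1117 to 1406).

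The highest mean level belonged to Rpl8 (NM_012053, chr15:76734501-76736748, plus strand of mm9), a protein that lies next to the peptidyl transferase centre of the large subunit. Its FPKM value was 2746, 3013, 1739 and 2129 in siCtrl cells on days 0, 1, 2 and 3 and 2930, 2762, 2286 and 2301 in siKlf5 cells. Rps9, which helps to begin the assembly of the small subunit, ran from 1624 to 3012 over the 8 libraries, and the stalk protein Rplp1 from 1601 to 2901. These 3 genes were lowest in the same library, siCtrl on day 2. Rps15a, a small-subunit protein, had the lowest level of the 79 expressed genes at 75.8 to 114, where the table lists an exon length of 5127 bases against a median of 677 for the expressed ribosomal protein genes and 2551 for all expressed transcripts. Next came Rpl7l1, a relative of Rpl7, and the large-subunit protein Rpl29, with means of 319 and 465. The order of the genes by level hardly moved, with a Spearman rho of 0.974 across the 79 genes between the siCtrl libraries of days 0 and 3, given as a description since the genes share both libraries.

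All reads on the 81 genes together made up 1.61% of the reads of the siCtrl library on day 0 (95% Clopper-Pearson interval 1.59% to 1.63%), 1.76% on day 1, 1.08% on day 2 (1.06% to 1.09%) and 1.28% on day 3 (1.26% to 1.30%). In siKlf5 cells the shares were 1.68%, 1.66%, 1.39% and 1.35% in the same order. In both siRNAs the share on day 3 was below that on day 0, and the siCtrl library of day 2 had the lowest share of all. The intervals cover counting error only. The shares are of reads kept under the limit of 3 per position, and the siCtrl library of day 2 was the deepest, with 20301506 reads. The part of that limit in the shares was not tested.

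The first comparison asked how ribosomal protein mRNAs changed over differentiation, day 3 against day 0. They were lower on day 3 as a group, and by a modest amount. Of the 79 genes, 20 fell and 0 rose (limma over the 8 libraries with siRNA and day as terms, adjusted p under 0.05), against 17.6% of all 14312 expressed transcripts called lower and 12.8% called higher. The median log2 change was -0.36, against -0.09 for all expressed transcripts. All but Rpl22 were lower on day 3 in both siRNAs, 78 of 79, where 43.0% of all expressed transcripts were. Without adjustment, 51 of the 79 were lower at a p under 0.05, against 24.0% of all expressed transcripts. These p-values rest on the siCtrl and siKlf5 libraries of each day, which differ in treatment, so they measure only the spread between these libraries. In RNA from whole cultures, a smaller share of cells of 1 type and less of the mRNA per cell cannot be told apart.

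The 2 siRNAs gave like values. The median change from day 0 to day 3 was -0.38 in siCtrl cells and -0.35 in siKlf5 cells, against -0.07 and -0.08 for all expressed transcripts, and whether the siRNAs differed in this change could not be tested with 1 library each. The depth of day 3 was 1.015 times that of day 0 in siCtrl cells and 0.976 times in siKlf5 cells. Other transcripts as densely covered (at least 2 reads per exon base, 247 transcripts) had medians of -0.18 and -0.12, beside -0.38 and -0.36 for the 60 ribosomal protein genes in that range.

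**Figure D2:**
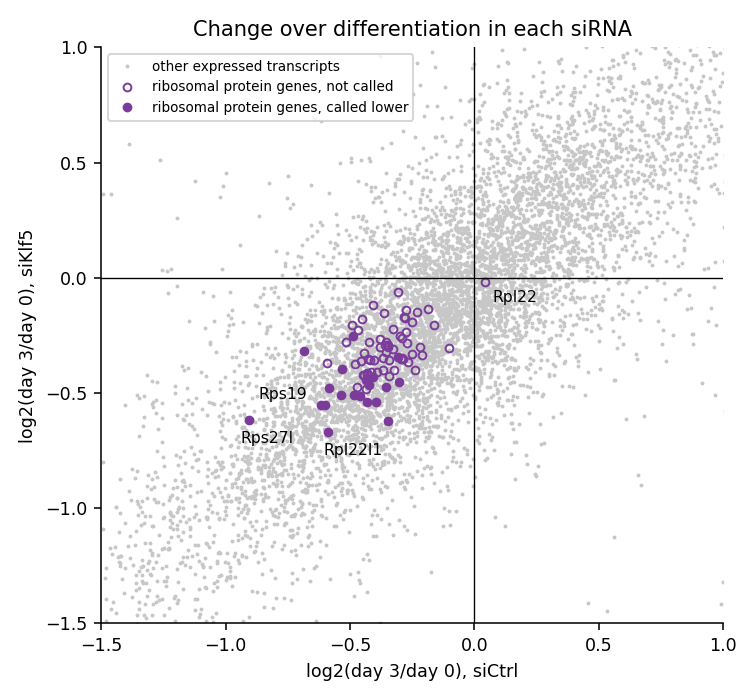
Log2 ratio of day 3 to day 0 in siCtrl cells (x axis) and in siKlf5 cells (y axis), with 1 point per gene. Purple points are the 79 expressed ribosomal protein genes, filled where the fall passed the test (20 genes), and grey points are other expressed transcripts with at least 0.1 reads per exon base, some of which lie beyond the axes. The ribosomal protein genes sit at the lower left except Rpl22, which lies near the origin.

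By role, beside the 17.6% of all expressed transcripts called lower, 9 of the 30 small-subunit genes fell (median -0.37), as did 8 of the 43 large-subunit genes (median -0.34), 0 of the 3 stalk genes (median -0.39) and all 3 expressed duplicated copies (median -0.63). The calls of the small- and large-subunit genes were lost under 2 other scalings, given below. Rps2, a core protein of the small subunit (NM_008503, chr17:24857008-24858872, plus strand), had FPKM values of 2620, 2831, 1328 and 1708 in siCtrl cells on days 0 to 3 and 2831, 2498, 1910 and 1928 in siKlf5 cells. Both day 3 values lay below both day 0 values. It fell by 33.4% (log2 change -0.59, SE 0.17, limma adjusted p = 0.0314). Rps19, needed for maturation of the small subunit and mutated in Diamond-Blackfan anaemia (NM_023133, chr7:25669733-25674821, plus strand), stood at 1400, 1330, 837 and 922 in siCtrl cells and at 1441, 1323, 1100 and 984 in siKlf5 cells, in the order of days 0, 1, 2 and 3. It fell by 32.9% (log2 change -0.58, SE 0.13, limma adjusted p = 0.0105), and again both day 3 values were below both day 0 values. Rpsa, which is also known as the laminin receptor, fell by 30.8% (limma adjusted p = 0.0209).

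Among large-subunit genes the most reduced was Rpl41, the shortest ribosomal protein, whose FPKM value was 2775 and 2782 on day 0 and 1914 and 1956 on day 3 in siCtrl and siKlf5 cells (log2 change -0.52, SE 0.16, limma adjusted p = 0.0382). Rpl36 followed with 1601 and 1505 on day 0 and 996 and 1208 on day 3 (log2 change -0.50, limma adjusted p = 0.0394). Other genes that fell included Rps16, Rps21, Rps23, Rps24 and Rps27a, the last made as a fusion with ubiquitin, and Rpl10a, Rpl12, Rpl15, Rpl27a, Rpl29 and Rpl30, with log2 changes between -0.50 (Rpl12) and -0.33 (Rpl15). At the other end stood Rpl22 at 0.01 (SE 0.11, limma adjusted p = 0.958), Rpl9 at -0.16 and Rps27 at -0.18, none of which passed the test. The stalk proteins Rplp0, Rplp1 and Rplp2, where the elongation factors dock, had log2 changes of -0.43, -0.39 and -0.39 without passing it.

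How many genes passed, and whether that share lay above or below the share of all transcripts, depended on scaling, while the direction did not. The median of all expressed transcripts was -0.09 in the deposited scaling and 0.01 after median-ratio scaling, which put the median of the 79 genes at -0.25 and left 2 of them called lower (2.53%, against 12.8% of all expressed transcripts). Upper-quartile scaling left 3 (3.80% against 13.5%). Under both of these scalings 0 of the 43 large-subunit, 0 of the 30 small-subunit and 0 of the 3 stalk genes were called, and the calls that were left were all duplicated copies. With cyclic loess, a correction for level fitted to the other transcripts and chosen after seeing the data, the median was -0.25 and 44 were called lower (55.7% against 14.3%). Leaving day 1 out of the fit left 13 calls (16.5% against 16.9%) and leaving out day 2 gave 30 (38.0% against 12.8%). In the deposited scaling and in these 3 others, 78 of the 79 genes were below 0, with Rpl22 as the exception.

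Of the 3 expressed duplicated copies, Rps27l and Rpl22l1 had the lowest changes of the 79 genes in this comparison. Rpl22l1 (NM_026517, chr3:28704433-28706337, plus strand), the partner of Rpl22, went from 840 on day 0 to 695, 623 and 558 on days 1, 2 and 3 in siCtrl cells, and from 890 to 673, 578 and 559 in siKlf5 cells. The value was lower on each later day in siCtrl and in siKlf5 cells. It fell by 35.4% from day 0 to day 3 (log2 change -0.63, SE 0.10, limma adjusted p = 0.00261), and it was the only one of the 79 genes called lower in all 11 alternative settings, with adjusted p between 0.00188 and 0.0346. Rpl22 itself (NM_009079, chr4:151699835-151708191, plus strand) was flat, at 477, 478, 433 and 491 in siCtrl cells and 457, 480, 497 and 451 in siKlf5 cells on days 0 to 3. Rpl22l1 thus made up 63.8% and 66.1% of the summed FPKM value of the pair on day 0 in siCtrl and siKlf5 cells, and 53.2% and 55.4% on day 3. On the log2 scale the ratio of Rpl22l1 to Rpl22, in which a single scaling factor per library cancels, changed by -0.63 in siCtrl and by -0.65 in siKlf5 cells.

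Rps27l (NM_026467, chr9:66793925-66797316, plus strand), a copy of Rps27 that p53 is known to induce, had FPKM values of 787, 666, 573 and 420 in siCtrl cells on days 0 to 3 and 858, 591, 642 and 560 in siKlf5 cells. It fell by 41.0% (log2 change -0.76, SE 0.14, limma adjusted p = 0.00511), and it was called in 9 of the 11 alternatives, with adjusted p between 0.00337 and 0.0829. Its core gene Rps27 stood at 1197 and 1234 on day 0 and at 968 and 1182 on day 3. The copy made up 39.7% and 41.0% of the pair on day 0 and 30.2% and 32.1% on day 3 in siCtrl and siKlf5 cells. Rpl7l1 had 377 and 404 on day 0 and 286 and 278 on day 3, and it fell by 27.7% (limma adjusted p = 0.0121). Its share of the pair with Rpl7 moved less, from 16.58% and 17.64% on day 0 to 15.25% and 14.40% on day 3. In siCtrl cells on day 2 that share was 18.72%. These 3 copies were also lower on day 1 than on day 0 in both siRNAs, with medians of -0.27 and -0.49, where the 79 genes had medians of 0.11 and -0.06. The copies had a median of 1.22 reads per exon base and all 79 genes 2.87, and the part of coverage in these differences was not tested. Rpl36al, a relative of Rpl36a whose symbol the naming rule leaves out, is not counted among these copies. It made up 42.24% and 48.33% of its pair on day 0 and 43.36% and 46.92% on day 3 in siCtrl and siKlf5 cells.

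**Figure D3:**
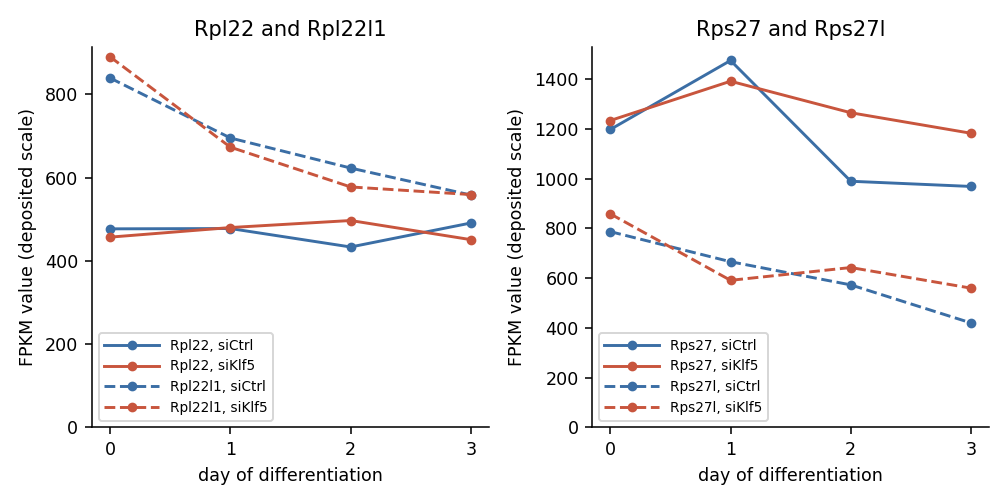
FPKM value (deposited scale, linear axis from 0) of Rpl22 and Rpl22l1 (left) and of Rps27 and Rps27l (right) by day of differentiation, with 1 library per point. Solid lines are the core gene and dashed lines the copy, blue for siCtrl and red for siKlf5. Rpl22l1 goes from 840 and 890 to 558 and 559 while Rpl22 stays between 433 and 497, and Rps27l goes from 787 and 858 to 420 and 560.

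The remaining copies were silent or nearly so. Rpl10l, a retrocopy of Rpl10 known from the testis, had 0 reads in all 8 libraries. Rpl39l, another copy with testis expression, had 3 reads, all in the siKlf5 library of day 2. Rpl3l (NM_001163945, chr17:24864774-24873094, plus strand), which takes the place of Rpl3 in mature skeletal muscle and heart, had 14 reads in all: 10 in siKlf5 cells on day 3, 2 in siKlf5 cells on day 2 and 2 in siCtrl cells on day 0. Rpl3 was at FPKM values of 1268 to 2256 in the same libraries, so Rpl3l stayed at or below 0.25% of the pair through day 3. Reads were not independent of each other, so these counts may stand for very few fragments. A count of 0 does not show that the mRNA was absent.

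The second comparison asked whether Klf5 knockdown altered these mRNAs over the 4 days. No ribosomal protein gene passed the test. Of the 79 genes, 0 were called higher and 0 lower (limma with siRNA and day as terms, adjusted p under 0.05), and 0 had an unadjusted p under 0.05 in either direction. Of all 14312 expressed transcripts, 0.00699% were called higher and 0.0559% lower, and 3.93% and 5.67% had an unadjusted p under 0.05. On the log2 scale the differences of the 79 genes ran from -0.02 to 0.21 with a median of 0.11. Rps20, a protein of the small-subunit head, had the highest at 0.21 (SE 0.12, limma adjusted p = 0.615), followed by Rps26 at 0.20, Rplp1 at 0.18 and Rpsa at 0.18. The lowest were Rpl22l1 at -0.02 (SE 0.07, limma adjusted p = 0.963), Rpl22 at 0.01, Rpl7l1 at 0.01 and Rps29 at 0.02. That the test was not passed does not show that levels were equal. Without day 2 the median was 0.02, and without day 1 it was 0.18.

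By day, the log2 ratio of siKlf5 to siCtrl moved together across the genes. Its median over the 79 genes was 0.07, -0.09, 0.39 and 0.09 on days 0 to 3, against 0.00, 0.04, -0.03 and 0.00 for all expressed transcripts. The ratio was above 0 in 70 of the 79 genes on day 0, in 11 on day 1, in 78 on day 2 and in 68 on day 3. Of all 14312 expressed transcripts, 7171, 7593, 6371 and 6946 were above 0 on days 0 to 3. The SD among the 79 genes was 0.07 to 0.11, which is the spread of genes within a pair of libraries and not a replicate error. Past 1.5-fold, 0 genes were higher on day 0 (9.22% of all expressed transcripts), 0 on day 1 (16.4%), 1 on day 2 (7.69%) and 0 on day 3 (10.7%), and 0 were lower on any day (11.1%, 11.0%, 13.0% and 12.5%). Among the 247 other transcripts with at least 2 reads per exon base, few were past 1.5-fold either. There, 0, 2, 5 and 2 were higher and 7, 5, 0 and 2 lower on days 0 to 3. The ribosomal protein gene past the limit on day 2 was Rps18, a small-subunit head protein, with 1379 in siCtrl and 2078 in siKlf5 cells (log2 ratio 0.59, 95% counting interval 0.37 to 0.80). On the other days its FPKM value was 2212 and 2279, 2396 and 2239, and 1797 and 1911 in siCtrl and siKlf5 cells.

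On day 2 all 43 large-subunit, all 30 small-subunit and all 3 stalk genes were higher in siKlf5 cells, with medians of 0.39, 0.39 and 0.46, while the 3 duplicated copies had a median of 0.08, with Rpl22l1 at -0.11. For 75 of the 79 genes day 2 had the largest ratio of the 4 days. Higher in siKlf5 cells on all 4 days were 6 of the 79 genes, beside 1295 of all 14312 expressed transcripts. Lower on all 4 days were 0 of the 79. In 53 genes the ratio was above 0 on days 0, 2 and 3 and below 0 on day 1. For the counts of 75, 0 and 53 no share of all expressed transcripts is given, so they are not compared with one.

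Depth, coverage and ribosomal RNA moved with this pattern. The log2 ratio of the ribosomal RNA precursor Rn45s, whose level reflects in part how poly(A) selection went, was 0.38, -0.28, 0.74 and 0.65 on days 0 to 3, so it too was below 0 on day 1 and highest on day 2, and its part in the pattern was not tested. The siCtrl library of day 2 was 1.719 times as deep as its partner but held 1.329 times as many reads on ribosomal protein genes, whereas on day 1, where it was 0.967 times as deep, it held 1.031 times as many. The median coverage of the 79 genes was 3.75 reads per exon base in the siCtrl library of day 2 and 2.73 in its partner, and at most 5.84 for any of them. Transcripts outside the group shifted with their coverage on day 2. Their median ratio was -0.10 under 0.1 reads per exon base, -0.04 from 0.1 to 1, 0.15 from 1 to 2 and 0.31 from 2 upwards, beside 0.39 for the 60 ribosomal protein genes in the last range. On day 0 the same 4 medians lay between 0.00 and 0.01, and on day 1 they were 0.04, 0.05, -0.02 and -0.06. After the same cyclic loess correction the medians of the 79 genes were 0.08, -0.03, 0.11 and 0.06 on days 0 to 3. The part of the limit of 3 reads per position in the day 2 ratio was not tested.

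**Figure D4:**
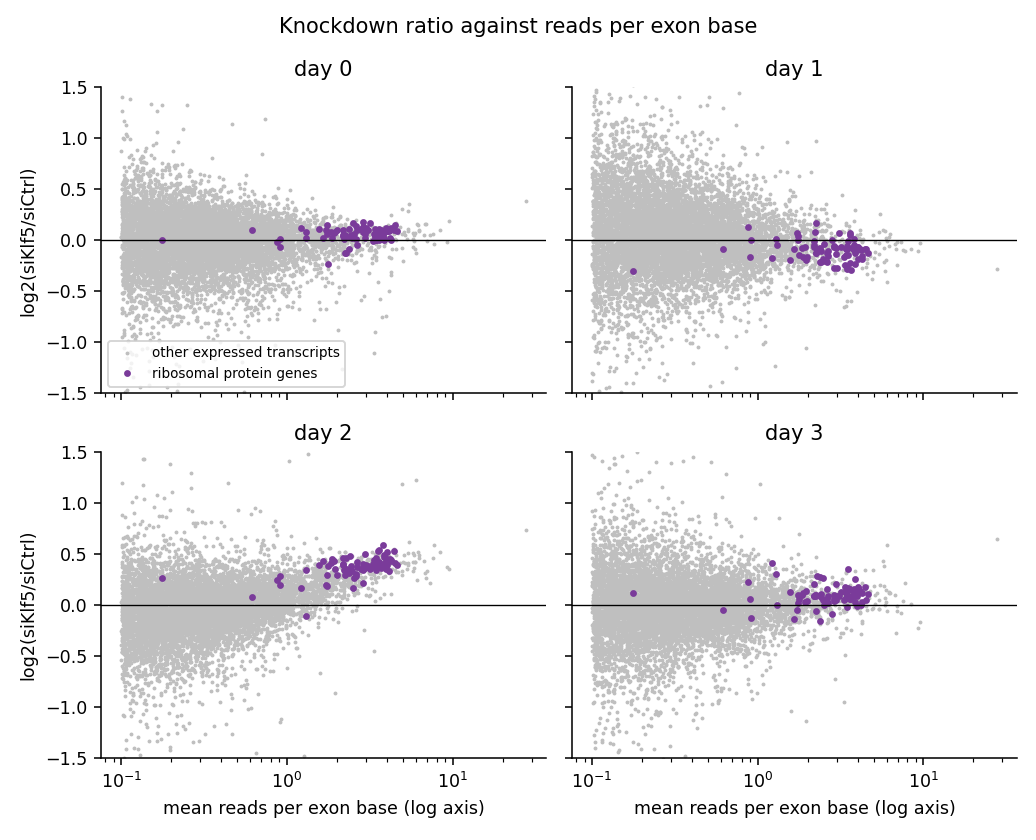
Log2 ratio of siKlf5 to siCtrl (y axis) against the mean number of reads per exon base over the 8 libraries (x axis, log scale), with 1 panel per day and 1 point per gene. Purple points are the 79 expressed ribosomal protein genes and grey points the other expressed transcripts with at least 0.1 reads per exon base, a few of which lie beyond the axes. On day 2 the densely covered transcripts lie above 0 in both colours (medians 0.39 and 0.31 from 2 reads per base upwards).

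Other genes of the pathway were taken from lists written from general knowledge. In the knockdown comparison 0 of their expressed members were called by limma at an adjusted p under 0.05. At an unadjusted p under 0.05 there were 1 higher and 1 lower among assembly factors and 2 higher and 2 lower among mitochondrial ribosomal proteins. There was 1 lower in the RNA polymerase I list and 0 among translation factors. Of all expressed transcripts, 3.93% were higher and 5.67% lower at that unadjusted p. From day 0 to day 3, 31 of 41 ribosome assembly factors fell and 0 rose, against 17.6% and 12.8% of all expressed transcripts. Their median log2 change was -0.81 beside -0.36 for the ribosomal proteins. Nop56, a core protein of the box C/D particles that methylate ribosomal RNA, went from 755 and 665 on day 0 to 246 and 249 on day 3 in siCtrl and siKlf5 cells (log2 change -1.52, SE 0.16, limma adjusted p = 0.000343). Dkc1, which modifies uridines of ribosomal RNA, went from 293 and 253 to 108 and 92.2 (log2 change -1.45, SE 0.17, limma adjusted p = 0.000673). Both genes were covered by fewer than 2 reads per exon base. After median-ratio scaling 30 of the 41 assembly factors were still called lower, with a median of -0.70, against 12.8% of all expressed transcripts.

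Of the translation factors, 27 of 40 fell and 2 rose (median -0.47). Of 14 genes of RNA polymerase I and its factors, 3 fell and 0 rose (median -0.34). Among all expressed transcripts 17.6% fell and 12.8% rose. Mitochondrial ribosomal proteins, which build a separate ribosome, fell in 29 of 77 cases and rose in 0, with a median of -0.35. Their coverage was lower, with a median of 0.41 reads per exon base, and their median knockdown ratio by day was 0.04, -0.01, 0.04 and 0.03. The day 2 median was thus 0.39 in cytosolic and 0.04 in mitochondrial ribosomal proteins. It was 0.15 in translation factors, 0.10 in assembly factors and -0.04 in the polymerase list, with median coverages of 1.16, 0.42 and 0.19 reads per exon base. After median-ratio scaling the calls of day 3 against day 0 were 18 lower and 2 higher among translation factors and 3 lower in the polymerase list. Among mitochondrial ribosomal proteins 23 were lower and 1 higher. Of all 14312 expressed transcripts, 1827 (12.8%) were called lower and 2173 higher under that scaling.

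**Figure D5:**
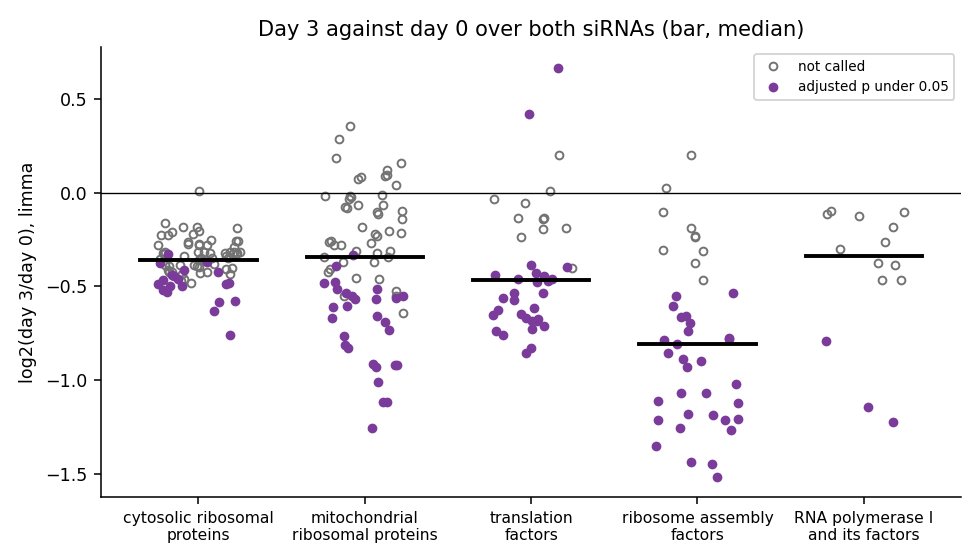
Log2 change from day 0 to day 3 over both siRNAs (limma coefficient), with 1 point per expressed gene and a bar at the median of each list. Filled points passed an adjusted p of 0.05. The medians are -0.36 for cytosolic ribosomal proteins, -0.35 for mitochondrial ones, -0.47 for translation factors, -0.81 for ribosome assembly factors and -0.34 for RNA polymerase I and its factors.

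Some members cannot be separated from neighbours in the table. Rps27, Rpl34, Rpl30 and Rpl26 each share over 95% of their span on the same strand with a second listed gene (Rps27rt, Rpl34-ps1, Gm12191 and Gm15772), so the same reads may stand behind both names. Rps27rt for example had 1213, 1514, 1003 and 990 in siCtrl cells, close to the 1197, 1475, 989 and 968 of Rps27. Protein-coding genes on the opposite strand overlapped the span of 6 members, and both strands had been counted together. Ribosomal protein genes also host small nucleolar RNAs in their introns, and 31 such RNAs were listed within the spans of the 81 genes. Rps3a1 and Rpl36al, also cytosolic ribosomal proteins, carry symbols the naming rule leaves out, and their mean FPKM values were 1637 and 992.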

How the data were processed

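RNA-seq was analysed for 8 libraries of C2C12 cells, 1 per siRNA (siCtrl, siKlf5) and day (0, 1, 2, 3), with groups taken from the sample titles. According to the file headers and the study's methods, poly(A) RNA was sequenced from both ends and the authors used STAR for alignment to mm9 and HOMER for counting on the exons of RefSeq transcripts, on both strands, with at most 3 reads per position and 1 transcript per gene (their versions for this step are not given in the sources used here). The values the authors deposited are FPKM scaled to a matrix total of 10000000 per library. A further 8 columns of log2 values were not used, since 1 of them names no day. The study's text describes counts normalised with DESeq2, which were not used here.

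Reads were recovered from FPKM value times exon length, where all values checked came within 0.1 of whole reads. Because reads were not independent, the 95% Clopper-Pearson intervals used read numbers divided by 6, and they cover only counting error. Values were analysed as log2(FPKM + 0.1), which understates changes of low transcripts, for transcripts with a mean of at least 1. limma 3.58.1 in R 4.3.3 was fitted to all 14312 of these with siRNA and day as factors and a trended prior (3 residual degrees of freedom), with Benjamini-Hochberg adjustment at 0.05. Ratios by day have no replicate and were counted past 1.5-fold without a test. On simulated libraries of the knockdown comparison (14231 transcripts tested, 200 changed), 92.0% of 4-fold and 43.0% of 2-fold changes were called in the right direction, and 2.2% of calls were false. The simulation gave each transcript the same level on all days and the same siRNA difference on each day. The real libraries differed between days in both, so these rates need not hold for them.

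Genes named were those with the 3 highest and 3 lowest mean levels, the 4 highest and 4 lowest coefficients of each comparison, those past 1.5-fold on a day, and the duplicated copies. Some genes that this rule covers are not reported here. Other genes that passed the test, the stalk genes and genes sharing a locus were named after their values were seen. The genes, lists and rules were chosen with earlier results of these data known. Alternatives were other pseudocounts, filters, scalings and cutoffs, a linear trend over days, a fit without the prior trend or without day as a block, and leaving out days. Positions are those of the table on mm9, and sequences were read from the NCBIM37 (mm9) genome. Tables were processed in Python 3.11.15 (pandas 2.3.3, numpy 2.4.6, scipy 1.17.1) and drawn with matplotlib 3.10.9.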

Additional observations from a re-analysis of the deposited data

Results flagged for a closer look

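The direction of the siKlf5 to siCtrl ratio differed between days, in the ribosomal protein genes and in other sets. The median log2 ratio of the 79 expressed ribosomal protein genes was -0.087 on day 1, where 68 of the 79 were below 0, but 0.074 on day 0, 0.387 on day 2 and 0.092 on day 3, where 70, 78 and 68 were above 0. Of all 14312 expressed transcripts, 6228 were below 0 on day 1, and 7171, 6371 and 6946 were above 0 on days 0, 2 and 3. The 247 other transcripts with at least 2 reads per exon base had medians of 0.014, -0.064, 0.308 and 0.031 on days 0 to 3. The medians were 0.057, -0.089, 0.301 and 0.060 for 19 other TOP mRNAs and 0.027, -0.088, 0.151 and 0.054 for translation factors. With 1 library per siRNA and day the difference between days was not tested. The day 1 libraries were the shallowest of the 8, and on day 2 the siCtrl library was 1.719 times as deep as the siKlf5 library. The part of depth in these medians was not tested.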

How the results depend on the processing

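The fall from day 0 to day 3 kept its direction in all settings run, and 0 genes were called higher in any. Its medians were -0.36 to -0.25 in the settings that measure this change. The linear trend gave a slope per day, which is another quantity. The number called lower, 20, was 2 without a filter on low values, 2 with median-ratio factors, 3 with upper-quartile scaling, 44 with cyclic loess and 1 without a trend in the prior variance, where 5.23%, 12.8%, 13.5%, 14.3% and 9.54% of all transcripts tested were called lower, and 13 to 30 when day 1 or day 2 was left out. In the knockdown comparison 0 genes were called in any setting, including the fit without day as a replicate block. Its median of 0.110 was 0.051 with cyclic loess, 0.025 with cyclic loess and without day 2, and 0.015 to 0.184 when 1 day was left out. Single genes near 0 changed sign. When 1 day was left out, Rpl22l1 ran from -0.051 to 0.014, Rpl22 from -0.059 to 0.048, Rpl7l1 from -0.015 to 0.047 and Rps29 from -0.108 to 0.099. With cyclic loess Rpl22 was at -0.014 and Rps29 at -0.026, and with cyclic loess and without day 2 Rpl22l1 was at 0.021, Rpl22 at -0.055, Rpl7l1 at -0.008 and Rps29 at -0.098. The cause was not tested.

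The day 2 median of 0.387 was 0.108 with cyclic loess. The 1 gene past 1.5-fold on day 2 became 2 without a filter or with median-ratio factors, 5 with upper-quartile scaling and 0 with cyclic loess. At the lower of the other cutoffs 61 genes were past it on day 2 and 2 on day 3, and at 2-fold 0 were on day 2. In the deposited scaling 7.69% of all expressed transcripts were higher past 1.5-fold on day 2. For the other cutoffs and scalings no such share is given, so those counts are not compared with one. The day 2 quartiles of the log2 ratio were 0.337 and 0.432 for the 79 genes and -0.287 and 0.178 for all expressed transcripts. They were 0.221 and 0.411 for the 247 other transcripts with at least 2 reads per exon base. As a share of summed FPKM in place of reads, the 81 genes made up 5.296%, 5.828%, 3.741% and 4.302% in siCtrl cells on days 0 to 3 and 5.510%, 5.465%, 4.641% and 4.629% in siKlf5 cells.

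A planned correction for the limit of 3 reads per position was not run. It assumed a ceiling of 6 reads per exon base, and 7 to 48 transcripts per library exceeded this. In simulated data of the knockdown comparison, which held no differences between days, 43.0% of 2-fold changes were called. That rate need not hold for the real libraries, and the differences of single ribosomal protein genes were smaller than 2-fold.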

Other observations

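Among 19 other mRNAs known to carry the TOP motif, 5 fell from day 0 to day 3 and 0 rose (limma, adjusted p under 0.05). Of all expressed transcripts 17.6% fell and 12.8% rose. The 19 mRNAs had a median log2 change of -0.29 and a median coverage of 2.71 reads per exon base. Nap1l1, a histone chaperone, and Pabpc1, the cytoplasmic poly(A)-binding protein, had the largest reductions at -0.91 and -0.69 (limma adjusted p = 0.00117 and 0.00986). Gnb2l1, which encodes the small-subunit scaffold Rack1, ran from 1391 to 2206 in FPKM value over the 8 libraries. Eef1a1, the main elongation factor, ran from 3034 to 5625, whereas Eef1a2, its counterpart in adult muscle, was listed at 0 in all libraries but siKlf5 on day 1, where it had 6 reads. The knockdown ratio of these 19 genes had medians of 0.06, -0.09, 0.30 and 0.06 on days 0 to 3, beside 0.07, -0.09, 0.39 and 0.09 for the ribosomal protein genes.

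The ribosomal RNA precursor Rn45s, which poly(A) selection should largely remove, took 0.741% of the reads of the siCtrl library of day 2 and 2.156% of that of day 1. Its FPKM value was 14669, 22636, 7680 and 11212 in siCtrl cells on days 0 to 3 and 19107, 18620, 12801 and 17553 in siKlf5 cells.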
